A study of Mus musculus with 54 samples.

Results

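Prnd, Apol10b and Glipr1 were 3 genes outside the cytoskeleton that were selected on measured values, namely large and lasting rises with prieurianin in mouse 3T3-L1 cells. The arrays of cells given DMSO entered this choice, and whether those of untreated cells did is not known. Prnp was set beside them as the relative of Prnd. These 4 genes were among 16637 genes with a named probe on the array, of which 12792 passed a filter on low values. Each of the 4 was read by 1 probe, each passed the filter on its mean over all arrays, and none of the 4 probes was saturated on any array. Because the choice used them, the differences between prieurianin and control cells from 5 h on are given for Prnd, Apol10b and Glipr1 as descriptions, with no test. Prnp was not chosen by its values and was tested throughout.

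The cells were 3T3-L1, a fibroblast-like mouse line that accumulates lipid and takes on fat cell markers in culture. There were 3 arms, each sampled at 18 times from 0 to 288 h with 1 array per arm and time: an untreated control in normal differentiation, 0.5% DMSO, and 2 µM prieurianin, a plant limonoid. The labels do not give the vehicle of the prieurianin arm, whether all arms received a differentiation stimulus at the same moment, or whether each time came from its own culture. Times within a window therefore stand in for replicates (0.25 to 3 h, 5 times; 5 to 48 h, 7 times; 96 to 288 h, 5 times), neighbouring times are not independent, and p-values measure the spread of a difference between times, which may be partly technical. All values are from whole cultures, so fewer cells expressing a gene and less RNA per cell cannot be told apart.

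Prnd encodes doppel, a cell surface protein held by a glycosylphosphatidylinositol (GPI) anchor and known chiefly from the testis, where it is needed for male fertility. Prnp, which lies just before it on the chromosome, encodes the prion protein, a GPI-anchored protein of most tissues and most abundant in the brain. Apol10b belongs to the apolipoprotein L family, intracellular lipid-binding proteins of which several are induced by interferon. Glipr1, glioma pathogenesis-related protein 1, is a membrane protein of the CAP superfamily and is known as a target of p53.

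Because Prnd, Apol10b and Glipr1 moved together, the start regions of the members are shown. RefSeq windows (build GRCm38.p6), from 250 bases before to 50 after the start site, were held for 3 of the 4 members; Glipr1 was not among them. They are the first Prnd window (chr2:131950611-131950910, plus strand), the Prnp window (chr2:131909678-131909977, plus strand) and the Apol10b window (chr15:77596076-77596375, minus strand), each written 5′ to 3′ on the gene's strand. Capitals mark matches to 5 motifs on either strand, or to the CArG box with at most 1 letter off.
Prnd: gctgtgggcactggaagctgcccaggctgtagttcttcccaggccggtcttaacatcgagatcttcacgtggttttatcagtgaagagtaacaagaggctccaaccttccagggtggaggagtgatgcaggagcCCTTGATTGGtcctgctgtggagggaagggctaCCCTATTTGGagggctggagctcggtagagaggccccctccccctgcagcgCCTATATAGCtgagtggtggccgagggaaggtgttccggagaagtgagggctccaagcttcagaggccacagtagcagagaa
Prnp: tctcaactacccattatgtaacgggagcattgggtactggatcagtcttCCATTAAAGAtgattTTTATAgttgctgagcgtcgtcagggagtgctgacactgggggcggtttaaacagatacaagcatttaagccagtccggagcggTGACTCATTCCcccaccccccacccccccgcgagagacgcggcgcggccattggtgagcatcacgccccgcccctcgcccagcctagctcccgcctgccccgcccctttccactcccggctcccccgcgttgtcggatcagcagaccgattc
Apol10b: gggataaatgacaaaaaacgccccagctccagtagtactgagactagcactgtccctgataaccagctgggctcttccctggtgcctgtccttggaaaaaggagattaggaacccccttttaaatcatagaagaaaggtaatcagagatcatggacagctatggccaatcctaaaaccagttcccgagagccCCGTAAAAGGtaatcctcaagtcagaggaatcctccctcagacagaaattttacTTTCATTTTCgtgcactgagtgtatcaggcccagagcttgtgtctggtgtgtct

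The motifs were the CArG box (bound by serum response factor), GGAATG (TEAD factors), TGANTCA (AP-1), the interferon response element (GAAA, any 2 bases, GAAA) and TATAAA. No exact CArG box was in any of these windows, against 1.63% of 32851 windows of the same length. With at most 1 letter off, which was looked at after the exact search was seen, the Prnd window held 3 matches, at positions -116, -83 and -32 from the start site, and the Prnp and Apol10b windows held 1 each; 21.1% of all windows hold at least 1. The Prnp window held TGACTCA overlapping CATTCC, the reverse of the TEAD motif (motifs in 7.81% and 14.7% of windows), and a TATAAA on the other strand (13.6%). The Apol10b window held the interferon response element across position -4 (3.44%). A second Prnd window, from a start site further on, held CATTCC and shared 1 of the near matches. These matches describe the letters and are not evidence of binding.

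One array stood apart. At 192 h the prieurianin array had a mean log2 level of 14.03 over 8 adipocyte markers (Adipoq, Plin1, Cfd, Fabp4 and others), beside 10.23 to 12.25 on the other 4 prieurianin arrays from 96 h on, 13.46 in DMSO cells and 13.67 in untreated cells at the same time. Of all other arrays, the one it correlated with best over the tested genes was that of untreated cells at 144 h (0.971, across genes). Its correlation was 0.955 with prieurianin cells at 144 h, 0.952 with DMSO cells at 192 h and 0.925 with prieurianin cells at 240 h. Its mean over 7 contractile markers (Actg2, Acta2, Tagln, Myl9 and others) was 10.85, near the 11.18 to 11.3 of the other 4 arrays and above the 8.65 of DMSO and 8.51 of untreated cells. Its markers thus lay near the controls in one list and near the prieurianin arm in the other, and whether it is the sample its label names, or a mixture, was not tested. If it is not, the late prieurianin means do not stand for prieurianin cells alone, and late values are therefore given with and without it. Median intensity per array ran from 88 to 313 as deposited, and pairs of arrays correlated at 0.893 to 0.996. All 8 fibroblast and preadipocyte markers passed the filter, as did all 8 adipocyte markers, whose summed normalized intensity ran from 17000 to 260000 over the DMSO course. Of 8 testis markers, the tissue known for Prnd, only Prm1 and Dhh passed, and the summed intensity of all 8 was 814 to 1550 in untreated, 760 to 1360 in DMSO and 850 to 1520 in prieurianin cells. Of 6 brain markers on the array, Syt1, Snap25 and Olig2 passed, with sums over the 6 of 556 to 1010, 610 to 905 and 587 to 918. Of 8 macrophage markers 5 passed (Cd68, Csf1r, Lyz2, Itgam and Cd14), with sums of 1770 to 8480, 1720 to 7100 and 1010 to 6280. The part of other cell types in the results was not tested.

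In the first hours Prnd, Apol10b and Glipr1 were already present, and in both controls they were lower later in the course. In untreated cells the deposited intensity of Prnd from 0 to 3 h ran from 224 to 467 (median 314, 6 arrays), was 359 at 5 h, and from 9 h on ran from 15 to 95. Every untreated array from 9 to 288 h lay below every one from 0 to 5 h. Prnd in DMSO cells ran from 185 to 338 up to 3 h, was 176 at 5 h and then lay between 28 and 81. In both controls the array at 9 h lay below the one at 5 h.

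On the log2(normalized intensity + 16) scale, the scale of all log2 values here, untreated Prnd was 1.98 ± 0.60 lower at 96 to 288 h than at 0 to 3 h (log2 change -1.98 ± 0.60, standard error; limma adjusted p = 0.0077), a 3.96-fold fall. Over the alternative settings, including single times left out, this log2 change ran from -2.243 to -1.565. The fall to 5 to 48 h (-1.56 ± 0.55, limma adjusted p = 0.045) was lost when any of 12 of the 18 times was left out (adjusted p up to 0.1). These standard errors hold the scatter of all arms, which for Prnd was largest late with prieurianin. The standard deviation of its log2 values there was 2.43, beside 0.67 in untreated and 0.37 in DMSO cells. In DMSO cells the changes were -1.95 ± 0.55 and -1.90 ± 0.60. The DMSO arrays from 5 h on entered the choice of Prnd, Apol10b and Glipr1, which favours low values there, so their changes over the DMSO course are a description with no test. Whether the untreated arrays also entered it is not known, so the tests of the untreated course are not independent of the choice for certain.

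Apol10b fell in untreated cells and was lower later in DMSO cells as well. Its deposited intensity in untreated cells was 1186, 1448, 1206, 1800 and 1206 from 0 to 2 h, 461 at 3 h and 908 at 5 h, then 283 to 484 from 9 to 48 h and 131 to 424 from 96 h on. DMSO cells ran from 1004 to 1402 over 0 to 2 h and were at 525 at 3 h, 302 at 5 h, 258 to 403 from 9 to 48 h and 58 to 464 afterwards. In both controls the array at 3 h lay below all earlier ones.

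Untreated Apol10b changed by -1.32 ± 0.28 from 0 to 3 h to 5 to 48 h (limma adjusted p = 0.00089) and by -2.04 ± 0.31 to 96 to 288 h (limma adjusted p = 7.7e-07), a 4.12-fold fall. In DMSO cells the differences were -1.74 ± 0.28 and -1.90 ± 0.31. As for Prnd, it is not known whether the untreated arrays entered the choice, so the untreated tests of Apol10b may not be independent of it.

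Glipr1 was also lower late than early in both controls. Untreated intensity ran from 231 to 380 from 0 to 3 h, was 302 at 5 h, and ran from 101 to 153 from 9 to 48 h and from 90 to 118 from 96 h on. In DMSO cells it ran from 190 to 346, was 225 at 5 h, and then ran from 79 to 162 and from 95 to 109. The late arrays of both controls all lay below all arrays of the first 3 h.

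The untreated fall of Glipr1 to 96 to 288 h was -1.05 ± 0.27 (limma adjusted p = 0.0016), or 2.07-fold. That to 5 to 48 h was -0.62 ± 0.25 and missed the threshold (limma adjusted p = 0.078); the 5 h array was high, and without 5 h the change was -0.81 (adjusted p = 0.0087). In DMSO cells the differences were -0.94 ± 0.25 and -1.06 ± 0.27. As for Prnd, it is not known whether the untreated arrays entered the choice, so the untreated tests of Glipr1 may not be independent of it.

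Prnp went the other way late in the course. Untreated intensity ran from 9456 to 15308 over 0 to 3 h (median 13322), from 9555 to 15579 over 5 to 48 h (median 11017), and was 17076, 23677, 21441, 26620 and 30636 at 96, 144, 192, 240 and 288 h. DMSO cells reached 15584, 18084, 16531, 30319 and 27090 at those times, and prieurianin cells 14909, 16576, 17090, 18831 and 18786. All arms were thus higher late than early, the prieurianin arm least at 240 and 288 h.

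The late change of Prnp was 1.03 ± 0.17 in untreated cells (limma adjusted p = 2.4e-06), 1.11 ± 0.17 in DMSO cells (limma adjusted p = 6.5e-07) and 0.88 ± 0.17 in prieurianin cells (limma adjusted p = 4.8e-05), which is 2.04-, 2.16- and 1.84-fold. The change from 0 to 3 h to 5 to 48 h was not called in any arm (-0.07 ± 0.15, -0.20 ± 0.15 and 0.41 ± 0.15; limma adjusted p = 0.81, 0.39 and 0.06).

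Counted together, 2 of the 4 members fell from 0 to 3 h to 5 to 48 h in untreated cells (Prnd and Apol10b), where 8.01% of all tested genes were lower by limma, and 3 of 4 fell to 96 to 288 h, where 17.3% were lower and 17% higher. All the members that fell were chosen on their values, so these counts may follow in part from the choice. In DMSO cells Prnp was among the 16.5% that were higher late. In prieurianin cells Prnp was among 15.3% that were higher late. The changes in DMSO cells were not called as different from those in untreated cells for any of the 4 members (limma adjusted p = 1 in both windows), the largest gap being -0.42 ± 0.40 for Apol10b at 5 to 48 h. The shares depend on the scaling: with the values as deposited, 17.7% of the untreated calls at 5 to 48 h were higher, against 50.9%, and 29.5% of the late ones, against 49.5%. In DMSO cells they were 30% against 45.4% and 34.8% against 50.7% (21.4% at 5 to 48 h with median centring), and in late prieurianin cells 24.6% against 50.5%.

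**Figure D1:**
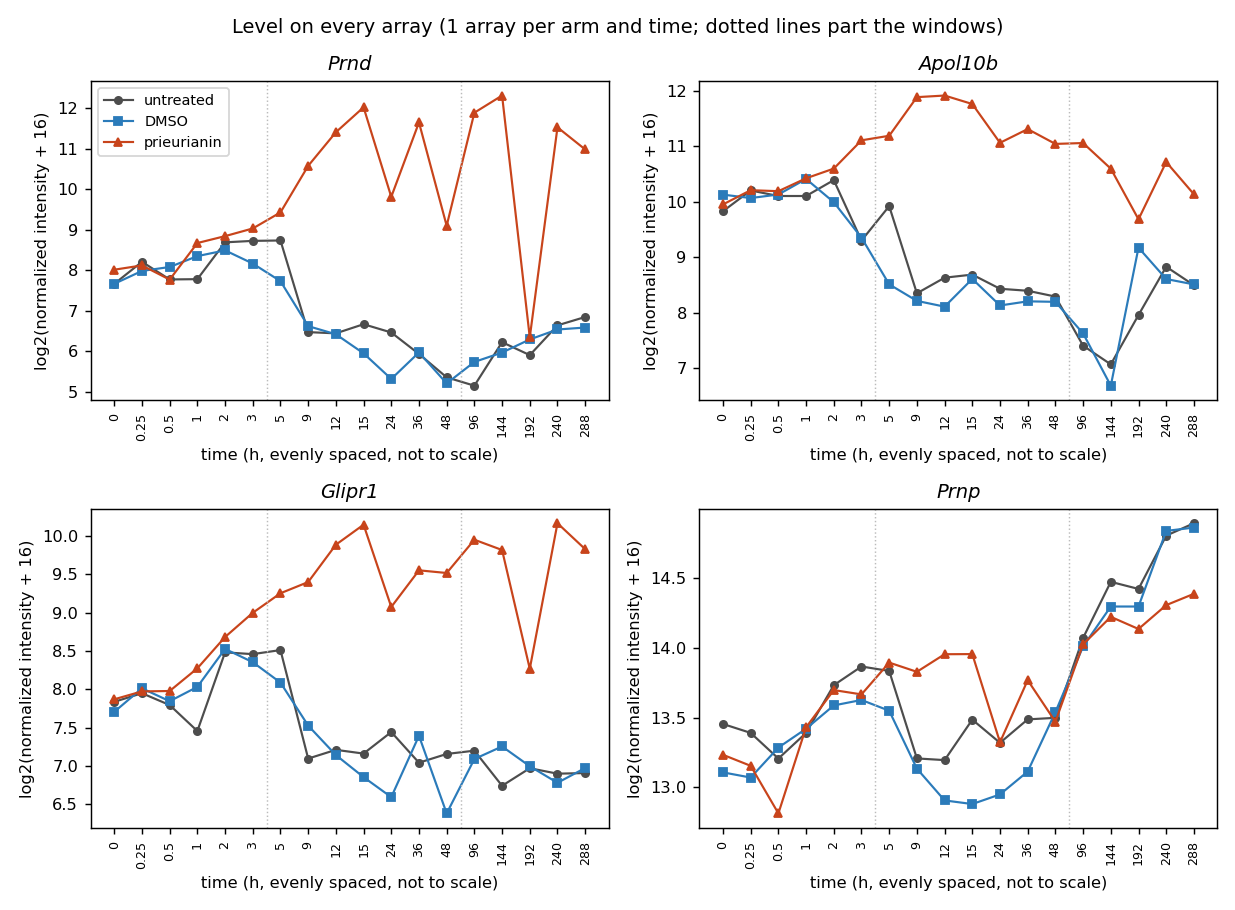
Level of each member on every array, as log2(normalized intensity + 16) against time (evenly spaced, not to scale), with 1 line per arm and 1 array per point; dotted lines part the windows of 0 to 3, 5 to 48 and 96 to 288 h. Prnd, Apol10b and Glipr1 part from both controls by 9 h and stay above them, Prnd at 192 h by the least (0.05 over DMSO), and Prnp climbs late in all arms.

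With prieurianin the 3 chosen genes were higher at 5 to 48 h than at 0 to 3 h. Prnd intensity was 223, 323, 241, 419, 373 and 393 from 0 to 3 h, within the 185 to 467 of the controls as deposited although above all control arrays at 2 and 3 h once normalized (8.84 and 9.03, highest control 8.74), and then 618, 1653, 2452, 3523, 921, 3078 and 416 at 5, 9, 12, 15, 24, 36 and 48 h. At 96, 144, 192, 240 and 288 h it was 3173, 4187, 54, 2689 and 1699. The level therefore swung widely between neighbouring times, with low arrays at 24, 48 and 192 h, and only the 192 h array was at the level of its controls (53 in DMSO and 47 in untreated cells). The arms did not overlap at 5 to 48 h, and overlapped late through that array. Separation of the arms is what the 3 chosen genes were picked for. It is given for each of them as a description, with no share over all genes beside it.

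Prnd in prieurianin cells was 4.39 ± 0.51 above DMSO cells at 5 to 48 h (21-fold), with single times from 1.70 at 5 h to 6.07 at 15 h. At 96 to 288 h it was 4.38 ± 0.60 above (20.9-fold), and 5.47 ± 0.48 without 192 h. Against untreated cells the differences were 3.98 ± 0.51 and 4.45 ± 0.60, the latter 5.46 without 192 h. By size of the difference from DMSO it was the third of 12792 genes at 5 to 48 h and the fourth at 96 to 288 h, as it was chosen to be. Prnd lay above the filter level (log2 6.071) on 44 of 54 arrays. Its normalized intensity in DMSO cells was as low as 21.02, at 48 h, so the constant added before taking log2 weighs on its folds. Over the alternative settings, including single times left out, its difference from DMSO ran from 3.832 to 4.842 at 5 to 48 h. At 96 to 288 h it ran from 3.893 to 5.465.

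Apol10b with prieurianin was highest at 5 to 48 h and near its starting level later. Its intensity was 900, 1498, 1287, 1549, 1363 and 1764 from 0 to 3 h and 2266, 4136, 3460, 2981, 2238, 2441 and 1686 from 5 to 48 h. At 96, 144, 192, 240 and 288 h it was 1775, 1240, 758, 1548 and 927. The highest arrays were those at 9 and 12 h, and each array from 5 to 48 h lay above all control arrays of that window; the same held from 96 h on.

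The difference of Apol10b from DMSO was 3.18 ± 0.27 at 5 to 48 h (9.05-fold) and 2.32 ± 0.32 at 96 to 288 h (5-fold; 2.78 without 192 h). From untreated cells it was 2.79 ± 0.27 and 2.49 ± 0.32. Within the prieurianin arm the mean at 96 to 288 h was 0.03 ± 0.31 from that of 0 to 3 h, beside -2.04 and -1.90 in untreated and DMSO cells.

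Glipr1 with prieurianin was higher from 5 h on and stayed so. Its intensity was 200, 288, 279, 305, 334 and 384 from 0 to 3 h, 541, 687, 855, 1014, 551, 707 and 561 from 5 to 48 h, and 814, 708, 260, 1048 and 751 from 96 h on. The array at 192 h was again the lowest of the late ones, although it still lay above every control array from 9 h on. No prieurianin array overlapped the DMSO or untreated arrays in either of these windows, a separation that its choice favours.

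The Glipr1 difference from DMSO was 2.41 ± 0.21 at 5 to 48 h (5.3-fold) and 2.59 ± 0.25 at 96 to 288 h (6.01-fold; 2.92 without 192 h), and from untreated cells 2.17 ± 0.21 and 2.66 ± 0.25. Within the prieurianin arm Glipr1 was 1.25 ± 0.25 and 1.31 ± 0.27 above 0 to 3 h in the middle and late windows, and Prnd 2.16 ± 0.55 and 2.20 ± 0.60. Beside these stand the late changes in untreated and DMSO cells, -1.05 and -1.06 for Glipr1 and -1.98 and -1.90 for Prnd. All of these comparisons with prieurianin share the prieurianin arrays, and their controls share times.

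**Figure D2:**
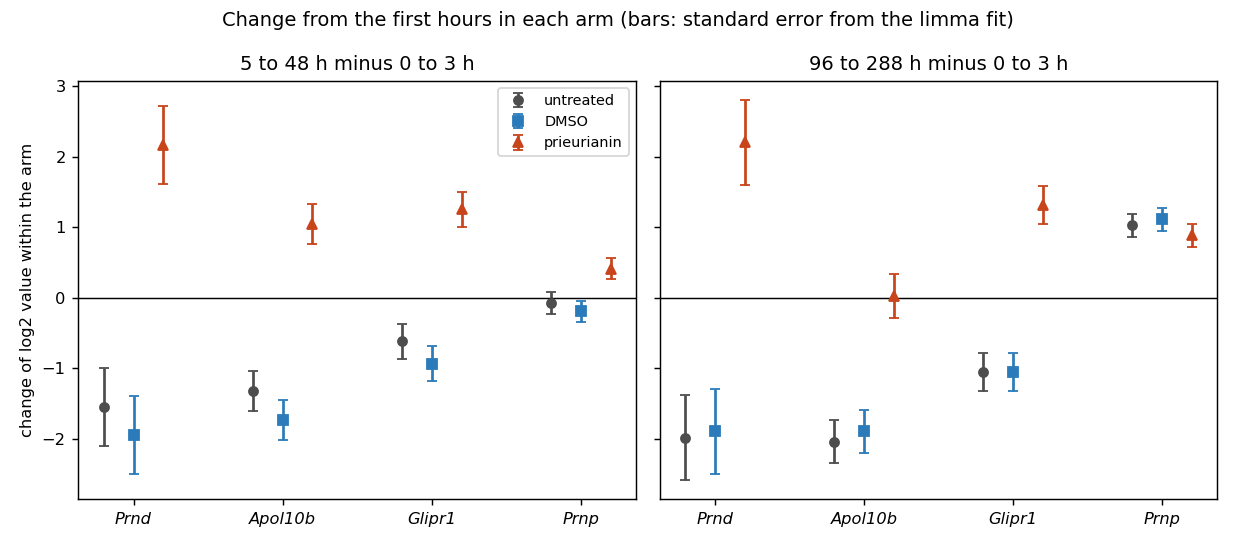
Change of each member from 0 to 3 h to the middle window (left) and to the late window (right) within each arm, as a difference of log2 values with standard errors from the limma fit (6, 7 and 5 arrays per window and arm). For Prnd and Glipr1 the controls lie below 0 and prieurianin above; late Apol10b with prieurianin is at 0.03, and Prnp is above 0 late in all arms.

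The arms parted within hours. Against both controls at the same time, on normalized values, the prieurianin array was higher at each time from 1 h for Prnd, from 0.25 h for Apol10b and from 0.5 h for Glipr1, and at 12 of 12 times from 5 h for each of the 3. The first of these gaps were small, so they do not date the parting. Apol10b at 0.25 h was 0.142 above DMSO and 0.005 above untreated cells. At 0 h Prnd was already 0.348 and 0.349 above them, and Glipr1 0.164 and 0.033. Prnd in prieurianin cells was 1.82-fold above DMSO at 3 h, 3.24-fold at 5 h, 15.5-fold at 9 h and 67.1-fold at 15 h. The DMSO level of Prnd at 15 h (log2 5.952) was under the filter level (6.071), so the size of that fold is uncertain. Apol10b was 3.38-fold above at 3 h, 6.43-fold at 5 h and 14.1-fold at 12 h, and Glipr1 1.56-fold at 3 h, 2.24-fold at 5 h and 9.8-fold at 15 h. Apol10b had the largest fold of the 3 at 3 h.

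A stricter line was the highest of all 36 control arrays, whatever their time. Prnd and Glipr1 lay above it at 13 of 18 prieurianin arrays, from 2 to 144 h and at 240 and 288 h. Apol10b lay above it at 13 as well, from 1 to 144 h and at 240 h. Prnp lay above it at 0 of 18. For the chosen genes these counts, and those of times above both controls, follow in part from the choice. No share over all genes is set beside them. With 1 array per point, the spread between the controls serves as the error: the DMSO minus untreated difference had a standard deviation over 18 times of 0.48 for Prnd, 0.51 for Apol10b, 0.39 for Glipr1 and 0.19 for Prnp.

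At 0.25 to 3 h none of the 4 members was called in prieurianin against DMSO. For Apol10b the lasting difference had begun by the last time of this window, 3 h (1.759 above DMSO and 1.811 above untreated cells). Whether these early arrays also entered the choice is not known, so these tests are not independent of it for certain. The differences were 0.27 ± 0.60 for Prnd, 0.52 ± 0.32 for Apol10b, 0.23 ± 0.25 for Glipr1 and -0.05 ± 0.12 for Prnp (limma adjusted p = 1 for each; 0 of 4 with an unadjusted p under 0.05). These standard errors pool the scatter of all arms and windows, so later scatter weighs on the early tests. For Prnd the standard deviation of the differences from DMSO was 0.424 at 0.25 to 3 h and 2.553 at 96 to 288 h. Limma called 0 of 12792 genes (0%) in this comparison, and 300 had an unadjusted p under 0.05. Against untreated cells, with 5.93% of genes called, the members were likewise not called (limma adjusted p = 0.46 to 0.89).

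**Figure D3:**
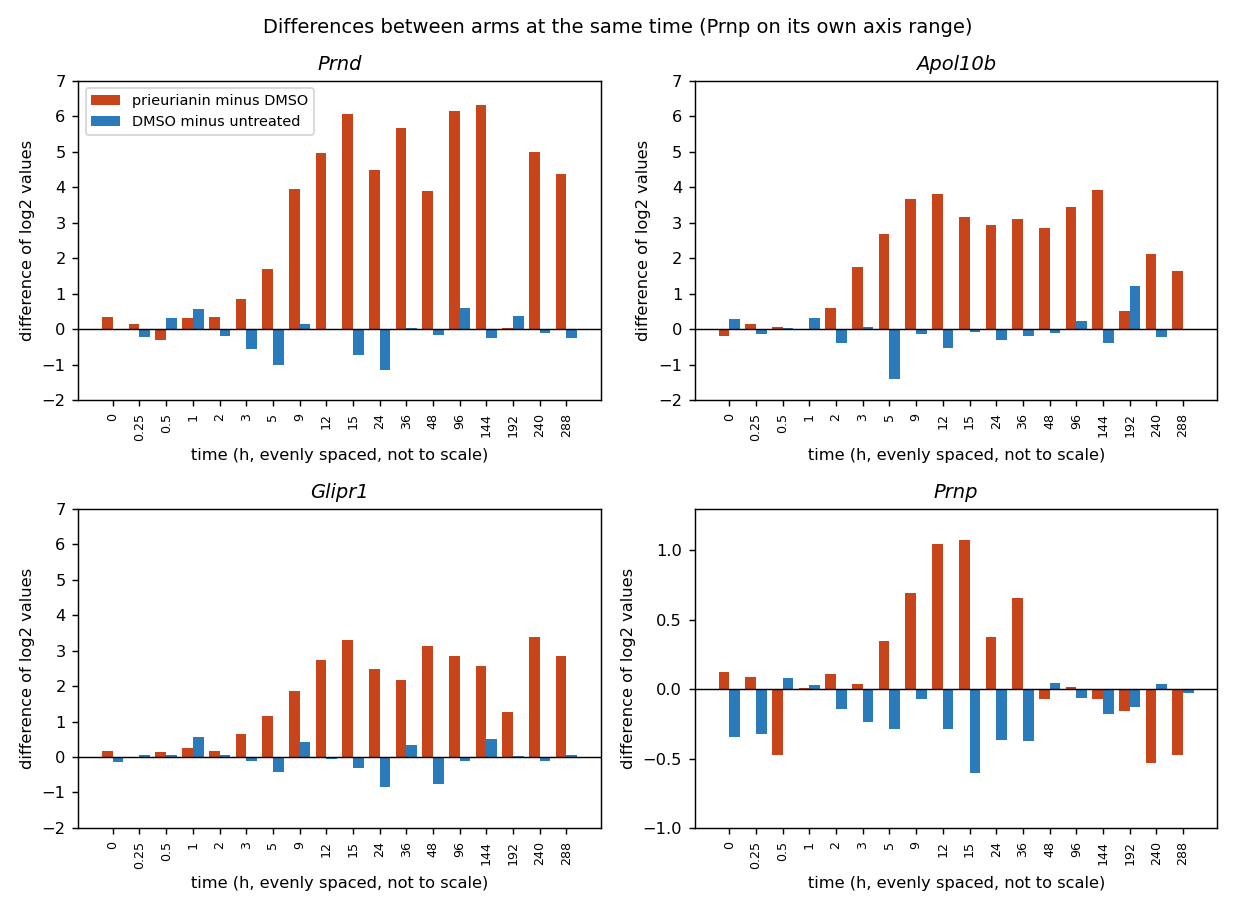
Difference of log2 values at each time, prieurianin minus DMSO (red-orange) and DMSO minus untreated (blue), 1 pair of arrays per bar; Prnp has its own axis range. For Prnd, Apol10b and Glipr1 the prieurianin bars exceed the blue bars at 5 to 144 h and at 240 and 288 h, and at 192 h they are 0.05, 0.51 and 1.27.

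Prnp was higher with prieurianin than with DMSO in the middle of the course. Its intensity with prieurianin was 16145, 15860, 13726, 13296, 10741, 13772 and 9829 from 5 to 48 h, against 11400, 9440, 7356, 8259, 7016, 8476 and 10686 with DMSO and 15579, 9555, 11017, 15519, 9973, 10569 and 11707 untreated. The DMSO array was the lowest of the 3 at each time from 5 to 36 h, and the prieurianin array at 48 h. The ranges of the arms overlapped.

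Prnp differed from DMSO by 0.59 ± 0.10 at 5 to 48 h (1.5-fold, higher at 6 of 7 times; limma adjusted p = 0.00012). Against untreated cells it was 0.31 ± 0.10 higher (1.24-fold, 6 of 7 times; limma adjusted p = 0.018), a call lost without 9 h (adjusted p = 0.077) or 12 h (0.1), with median centring (0.17, adjusted p = 0.5) and with the values as deposited (0.16, adjusted p = 0.32). Over 24 to 48 h alone the difference from DMSO was 0.32 (limma adjusted p = 0.32). DMSO itself was 0.28 ± 0.10 below untreated cells (limma adjusted p = 0.043), a call lost without any of 8 single times (adjusted p up to 0.14).

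Late, Prnp was lower with prieurianin by 0.25 ± 0.12 against DMSO (log2 difference -0.25, lower at 4 of 5 times; limma adjusted p = 0.15) and by 0.32 ± 0.12 against untreated cells (log2 difference -0.32, lower at 5 of 5 times; limma adjusted p = 0.049). The second call was lost without any of 12 single times, 192 h among them (-0.33, adjusted p = 0.068). The largest gaps were at 240 h (-0.53 against DMSO) and 288 h (-0.48). Set beside the whole table, Prnp was 1 of the 11.1% of genes called against DMSO at 5 to 48 h and of the 28.5% called against untreated cells; late, 16.7% and 22% were called. From the middle to the late window Prnp changed by 0.83 ± 0.23 less with prieurianin than with DMSO (log2 difference -0.83), which missed the threshold (limma adjusted p = 0.094).

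Prnd, Apol10b and Glipr1 were not called between DMSO and untreated cells, a comparison whose DMSO arrays from 5 h on entered the choice. DMSO minus untreated was -0.02 ± 0.60, -0.41 ± 0.51 and 0.07 ± 0.60 for Prnd in the 3 windows, -0.03 ± 0.32, -0.39 ± 0.27 and 0.17 ± 0.32 for Apol10b, and 0.13 ± 0.25, -0.24 ± 0.21 and 0.08 ± 0.25 for Glipr1 (limma adjusted p from 0.32 to 1). Calls were made for 0 of 4 members at 0.25 to 3 h (3.54% of all genes), 1 of 4 at 5 to 48 h, Prnp (20.3%), and 0 of 4 at 96 to 288 h (3.65%). By unadjusted p under 0.05, limma had 0 of 4 in the first and 0 of 4 in the last of these windows. The standard errors pool all arms and windows here as well, so the scatter of the prieurianin arrays enters them.

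The 3 chosen genes also moved alike where prieurianin was absent. Over the 36 control arrays the correlation of log2 values was 0.89 between Prnd and Glipr1, 0.83 between Prnd and Apol10b and 0.69 between Apol10b and Glipr1. Prnp correlated at -0.13, -0.30 and -0.26 with Prnd, Apol10b and Glipr1. These values share arrays and a common time course and are a description. The DMSO arrays from 5 h on also entered the choice of the 3 genes, which favours a shared fall there. Whether the untreated arrays entered it is not known. In the 18 untreated arrays alone the correlations were 0.86 between Prnd and Glipr1, 0.86 between Prnd and Apol10b and 0.78 between Apol10b and Glipr1. How often other pairs of genes reach such values was not looked at. In the 18 prieurianin arrays the correlation of Prnp with Glipr1 was 0.74 and with Prnd 0.58.

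Over all 54 arrays the gene most like Prnd was Glipr1 (r = 0.95), followed by Myl9 (0.93), a regulatory light chain of smooth muscle myosin, Actg2 (0.89), smooth muscle gamma-actin, Pdlim7 (0.88), Snx24 (0.88), a sorting nexin, and Palld (0.88), the actin cross-linker palladin. The genes most like Glipr1 were Prnd, Myl9 (0.94), Actg2 (0.92), Palld (0.89), Csrp1 (0.89) and Vcl (0.88), vinculin. Those most like Apol10b were Tgfb1i1 (0.96), a focal adhesion adaptor, Greb1 (0.92), Pdlim7 (0.92), Cnn2 (0.91), a calponin, Fhl2 (0.90) and Tpm1 (0.90), a tropomyosin. The points share arrays and arms, and 26, 24 and 27 genes had r above 0.8 with Prnd, Glipr1 and Apol10b. Myl9 and Actg2 are also on the list of 7 contractile markers, all of which passed the filter and whose summed normalized intensity was 47000 to 128000 in prieurianin cells, beside 4220 to 69600 in untreated and 3330 to 62300 in DMSO cells; their part in the members' levels was not tested.

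Without 192 h, 5, 5 and 6 of the 6 like genes of Prnd, Glipr1 and Apol10b stayed among the top 6. Ranked on the prieurianin minus DMSO differences over 18 times in place of levels, 1, 3 and 4 of 6 did, so the order depends on the measure. Prnp was most like Fhl1 (0.91), a LIM domain protein, Tmem189 (0.89) and Smim14 (0.88), and also Klf15 (0.88), a transcription factor of fat and muscle, Uhrf1bp1l (0.87) and Hcar2 (0.87), the nicotinic acid receptor of fat cells.

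On the prieurianin array at 192 h the genes most like Prnd were lower than on the other 4 late prieurianin arrays, and lay at different distances from the controls. Prnd was at 6.35, beside 6.29 with DMSO and 5.91 untreated, while Myl9 was at 12.89 (8.03 and 7.57) and Actg2 at 12.31 (7.01 and 6.52). Palld was at 13.54 (12.23 and 12.02), Glipr1 at 8.27 (6.996 and 6.97) and Pdlim7 at 12.45 (12.03 and 11.81). Snx24 was at 10.34, below both controls (11.16 and 10.89). Prnd and Snx24 were thus at or below the control level there, and Myl9 and Actg2 well above it.

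**Figure D4:**
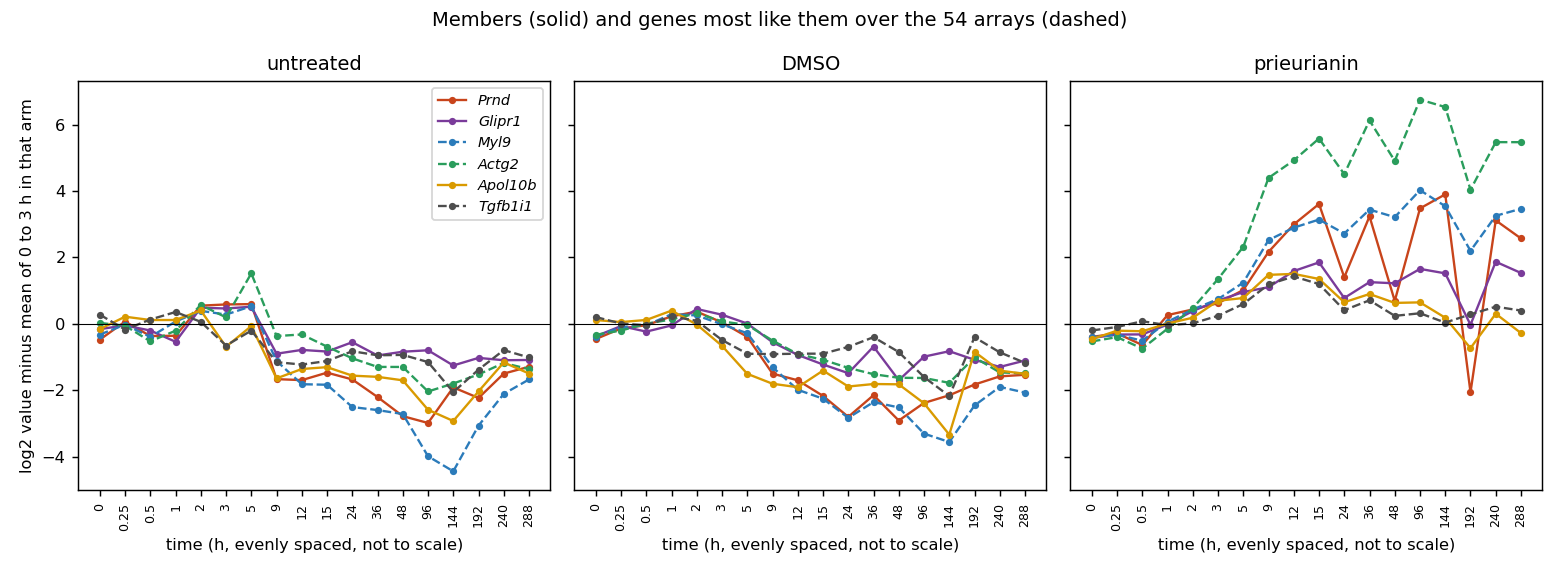
Members (solid lines) and 3 of the genes most like them (dashed lines) in each arm, as log2 value minus the mean of that gene over 0 to 3 h in the same arm, against time (evenly spaced, not to scale; 1 array per point). In the controls all 6 genes drop below 0 after 5 h, and in the prieurianin arm Actg2 and Myl9 stay above 0 at 192 h while Prnd and Glipr1 lie below it.

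The relatives and settings of the members were taken from lists, counted here for prieurianin against DMSO, where 6.62% of all tested genes were higher and 4.51% lower at 5 to 48 h and 7.32% and 9.36% at 96 to 288 h. With median centring the share of the middle calls that were higher went from 59.5% to 95.5%, and with the values as deposited that of the late calls went from 43.9% to 31.1%. The list counts leave out Prnd, Apol10b and Glipr1. Of the other 2 tested genes of the prion family, Prnp was higher at 5 to 48 h, while Sprn, shadoo, was at -0.07 ± 0.14 and 0.31 ± 0.17 (limma adjusted p = 0.82 and 0.21).

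Of 11 tested partners and proteases of the prion protein, 2 were higher and 0 lower at 5 to 48 h (list median -0.01, all genes -0.01), and 3 and 1 late (0.07, all genes 0.02). The middle calls were Ncam1 (0.60 ± 0.14, limma adjusted p = 0.0041) and Adam8 (0.71 ± 0.23, 0.043, lost with median centring at 0.061 and as deposited at 0.17). Late, the metalloprotease Adam8 was 1.03 ± 0.28 higher (limma adjusted p = 0.0095), the adhesion molecule Ncam1 0.52 ± 0.16 (0.026) and the metalloprotease Adam9, which sheds surface proteins, 0.35 ± 0.12 (0.042), and the sorting receptor Sort1 was lower (-0.79 ± 0.21, 0.01). The late calls of Ncam1 and Adam9 were lost with median centring (adjusted p = 0.24 and 0.35) and as deposited (0.1 and 0.1), and all 4 were kept without 192 h.

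Among 20 tested GPI-anchored proteins other than Prnd and Prnp, which share this anchor, 1 was higher and 1 lower at 5 to 48 h and 4 higher and 2 lower late, with medians of -0.04 and 0.02. Plaur, the urokinase receptor, was higher in both windows (1.56 ± 0.25, limma adjusted p = 5.4e-05; 1.33 ± 0.29, 0.002). Late, the complement regulator Cd55 (0.73 ± 0.20, limma adjusted p = 0.01) and the fibroblast surface protein Thy1 (0.40 ± 0.13, 0.026) were higher and Ly6e (-0.52 ± 0.14, 0.008) and the hyaluronidase Hyal2 (-0.34 ± 0.10, 0.018) lower. The fourth higher late was the ephrin Efna5 (0.33), and the one lower at 5 to 48 h was the glypican Gpc1 (-0.33, limma adjusted p = 0.0098, lost in both other scalings), both named after their values were seen. With median centring, of the 6 late calls only Plaur was kept, and without 192 h the counts were 7 and 3.

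Of 3 tested apolipoprotein L genes other than Apol10b, limma called 0 at 5 to 48 h (0 at an unadjusted p under 0.05) and late 0 as higher and 1 as lower (medians 0.17 and -0.27). Apol8 was at 0.19 ± 0.11 and 0.23 ± 0.13 (limma adjusted p = 0.27 and 0.23) and Apol7a at -0.04 ± 0.11 and -0.27 ± 0.13 (0.88 and 0.16). Apol6 was at 0.17 ± 0.15 at 5 to 48 h (0.55) and was lower late (-1.14 ± 0.18, limma adjusted p = 4.9e-05). In untreated cells Apol6 was 1.00 ± 0.26 higher late than at 0 to 3 h (limma adjusted p = 0.0023), the reverse of Apol10b. Apol10a was under the filter, and 9 listed family members had no probe with their symbol.

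Of 17 tested interferon response genes, 0 were called by limma at 5 to 48 h, with 2 at an unadjusted p under 0.05 (median 0.05). Late, 0 were higher and 7 lower (median -0.92), with Ifi44 (-1.58 ± 0.44, limma adjusted p = 0.013), Rsad2 (-1.56 ± 0.43, 0.011) and Ifit1 (-1.42 ± 0.37, 0.0075) lowest. Without 192 h 1 of the 17 was lower (median -0.29), Irf7 (-0.60, limma adjusted p = 0.0081), so 6 of the 7 calls were lost. Against untreated cells 5 were higher and 0 lower at 5 to 48 h (median 0.40), where 28.5% of all genes were called. DMSO cells had 3 higher and 0 lower than untreated cells there (median 0.44, 20.3% of all genes called). Late, 0 were higher and 3 lower with prieurianin than in untreated cells (22% of all genes called).

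In the CAP superfamily of Glipr1, 2 of 5 other tested genes were higher at 5 to 48 h and 1 late, and 0 were lower (medians 0.21 and 0.16). Crispld2, a secreted CAP protein, was at 1.06 ± 0.23 (limma adjusted p = 0.0023) and 1.73 ± 0.27 (4.8e-05). Glipr2, a CAP protein of the Golgi, was 0.66 ± 0.15 higher at 5 to 48 h (limma adjusted p = 0.0025) and at 0.24 ± 0.17 late (0.37). With median centring and with the values as deposited 2 and 1 were called as well, and without 192 h 2 were higher and 1 lower late (median 0.26).

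Of 16 tested p53 targets, 2 were higher at 5 to 48 h and 3 late, and 0 were lower (medians 0.09 and 0.16). Gadd45a, a growth arrest gene, was higher in both windows (0.80 ± 0.21, limma adjusted p = 0.011; 0.85 ± 0.25, 0.017), beside the death receptor Tnfrsf10b late (0.85 ± 0.19, 0.0022) and the stress cytokine Gdf15 late (0.67 ± 0.23, 0.048, lost in both other scalings with adjusted p = 0.11 and 0.076). Btg2, an antiproliferative gene named after its value was seen, was the other middle call (1.79 ± 0.24, limma adjusted p = 2.9e-06). Without 192 h 3 were higher at 5 to 48 h, and late 4 were higher and 1 lower. Against untreated cells 3 of the 16 were higher and 4 lower at 5 to 48 h, where 28.5% of all genes were called in either direction. Late, 3 were higher and 2 lower against untreated cells (22% of all genes called).

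The tested genes on either side of Prnd, Apol10b and Glipr1 differed less from DMSO than these 3 did. Because the 3 were chosen for large differences, this was all but fixed in advance, and the neighbours are given as a description. By gene order in RefSeq, Rassf2, which follows Prnd, was at 0.42 ± 0.22 at 5 to 48 h (limma adjusted p = 0.23) and higher late (1.27 ± 0.26, limma adjusted p = 0.00093). Slc23a2, Tmem230, Pcna and Erv3, near Prnd and Prnp, were not called in either window. Near Glipr1, Phlda1 was higher in both windows (0.56 ± 0.15, limma adjusted p = 0.011; 0.73 ± 0.17, 0.0039), and Krr1, Nap1l1 and Bbs10 were not called. Near Apol10b only Apol8 was tested.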

How the data were processed

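The authors deposited 1 table of intensities (Cy5, Phalanx Mouse OneArray; amplified total RNA, per the labels) for 54 arrays and 29922 probes, with no background columns. Values ran from -83 to 65497, and 0.47% were below 0. Scanner, background treatment and any scaling of the deposited intensities were not given in the sources used here. A single gene name was held for 21020 probes in the platform table and none or several for 8902; RefSeq gave a newer symbol for 3410.

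From these, intensities were quantile normalized between arrays, floored at 0 and taken as log2(value + 16). The probe with the highest mean stood for a gene, and genes above the lower quartile of mean log2 (6.07) were kept, 12792 of 16637. Limma 3.58.1 (R 4.3.3) fitted time as a factor with arm by window terms for differences between arms (51 arrays, 0 h left out, 28 residual degrees of freedom), and arm by window means for the course (54 arrays, 45 degrees of freedom). P-values were adjusted by Benjamini-Hochberg over all tested genes, with a threshold of 0.05, and ± is the standard error of the fit unless stated. Time as a factor pairs the arms, since the labels give each arm the same times. For Prnd, Apol10b and Glipr1, comparisons with prieurianin from 5 h on and the DMSO course are given with no p, the latter a change from the planned design. The scripts were tested on simulated data. With 1 array per arm and time, the number of arrays limits the precision.

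The genes named were the members, the 6 genes most correlated with each, at most 3 list genes in each direction by the late difference from DMSO, and 4 neighbours on each side. Irf7, Btg2, Gpc1 and Efna5 were named after their values were seen. The members and lists were chosen with earlier results of these data known. Alternatives were other scalings, pseudocounts, filters, floors, probe rules, blocks and windows, and leaving out each time.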

Additional observations from a re-analysis of the deposited data

Results flagged for a closer look

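Of 36 sets of 5 to 7 arrays (a member, an arm and a window), 5 had 1 array far from the rest by Dixon's ratio, the gap to the nearest array over the whole range; chance flags about 1 in 20. With prieurianin at 96 to 288 h, the 192 h array was the lowest for Prnd (ratio 0.777) and for Glipr1 (0.816). In untreated cells at 5 to 48 h, the 5 h array was the highest for Prnd (0.612), Apol10b (0.757) and Glipr1 (0.727).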

How the results depend on the processing

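Of 48 results under up to 33 alternatives, 1429 of 1484 comparisons were counted as kept, 55 as changed and 0 as reversed. For 42 results none was counted as changed. Kept meant the same side of the threshold, and a change of sign counted only where a call was involved. For Prnd, Apol10b and Glipr1 with prieurianin from 5 h on, it meant the same sign and a move under the standard deviation over times. That standard deviation was up to 2.553 (late Prnd against DMSO), so large moves could count as kept, and the tally does not measure robustness there. Some differences that were not called did change sign, among them DMSO minus untreated Apol10b at 0.25 to 3 h (-0.15 to 0.06). The cause of the changes was not tested. Leaving out 0 h was added after seeing the data. The filter at the median of gene probes gave no value for Prnd. Prnp against DMSO at 5 to 48 h was 0.32 over 24 to 48 h alone (limma adjusted p = 0.32). Prnp against untreated cells at 5 to 48 h was 0.17 with median centring, 0.16 as deposited and 0.086 over 24 to 48 h alone (limma adjusted p = 0.5, 0.32 and 0.8), and 0.23 to 0.37 with 1 time left out. DMSO minus untreated Prnp was -0.28 with no filter and with time as a random block (0.056 and 0.082), -0.31 over 5 to 15 h, -0.23 over 24 to 48 h (0.12 and 0.29), and -0.33 to -0.23 with 1 time left out. Late Prnp against untreated cells was -0.31 with median centring (0.34), -0.32 with no filter, a random block or only the 2 arms (0.064, 0.096 and 0.079), and -0.39 to -0.27 with 1 time left out. Untreated Prnd at 5 to 48 h was -1.24 with a pseudocount of 50 (0.074), -1.56 with no filter or a random block (0.054 for both), and -1.92 to -1.35 with 1 time left out. Untreated Glipr1 at 5 to 48 h was -0.84 as deposited, past the threshold, and -0.81 to -0.52 with 1 time left out, called without 5 h or 192 h (0.0087 and 0.046).

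Without the replicate block, that is with time left out of the model, Prnp was 0.31 and -0.32 against untreated cells at 5 to 48 and 96 to 288 h (limma adjusted p = 0.16 and 0.28) and -0.28 for DMSO minus untreated (0.25); no other call of the members changed with the block.

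Counts of genes called moved by over 1.5 times. Prieurianin against DMSO gave 1424 genes at 5 to 48 h, but 581 with median centring, 647 as deposited, 411 without the block, and 817, 655 and 748 without 9, 12 and 15 h. Late it gave 2133, but 810, 1379 and 657, and 3302, 1011 and 811 without 192, 240 and 288 h. Against untreated cells 759, 3642 and 2811 genes became 202, 2297 and 1327 with median centring, and 280, 1962 and 1227 without the block; 308 of 759 were called as deposited, and 1750 of 2811 without 240 h. DMSO against untreated cells gave 453, 2596 and 467, but 155 and 32 early and late with median centring, 111 and 17 as deposited, and 188, 1366 and 125 without the block. The early 453 became 701 with every probe tested singly, and 83, 204, 253 and 86 without 0.25, 1, 2 and 3 h; the late 467 became 230, 125, 280 and 108 without 96, 144, 192 and 240 h. The early 759 against untreated cells became 380, 465 and 205 without 0.25, 1 and 3 h. The untreated course at 5 to 48 h gave 2086, but 1254 with median centring and 1234 as deposited, and the DMSO course 2220, but 990 as deposited.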
